A study of Mus musculus with 16 samples.

Results

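The comparison concerned liver RNA of female and male mice that had both eaten a high fat diet, and its members were the expressed genes of chromosomes 1 to 19. Of the 78317 genes listed, 14781 had enough counts to be tested, and 13587 of these could be placed on an autosome. The tested genes left out were 429 on the X chromosome, 6 on the Y chromosome, 16 mitochondrial genes and 743 for which no chromosome 1 to 19 was found. The libraries compared were 4 female and 4 male high fat libraries of the 16 in the series.

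All mice were C57BL/6J, an inbred strain, and are labelled wild type. They arrived at 6 weeks of age and then ate, for 10 weeks, either a normal chow (4.5% of calories as fat) or a high fat diet (60% as fat). The 4 groups were therefore females on high fat diet, males on high fat diet, females on normal diet and males on normal diet, with 4 libraries each. The diets came from different makers and can differ in more than fat. RNA came from powdered whole liver, so a lower level of a transcript in bulk tissue can mean fewer cells of a type or less RNA per cell, and these cannot be told apart. The labels give replicate numbers without naming animals, so the p-values measure the spread between these libraries.

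The liver is one of the organs with the most sex-dependent gene expression in rodents. In males the pituitary releases growth hormone in well-separated pulses, in females more steadily, and the transcription factor STAT5 carries this pattern into male-typical and female-typical genes for steroid, drug and lipid handling. On a high fat diet hepatocytes take up fatty acids, store them as triglyceride in lipid droplets whose coat is made of perilipins and CIDE proteins, or export them in lipoproteins. Kupffer cells, the resident liver macrophages, and other immune cells respond to lipid loading, and interferon gamma from T and NK cells induces GTPases, antigen presentation genes and chemokines through the factor IRF1.

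Promoter sequences were searched for 2 known factor motifs, and 5 promoters of interferon and acute phase genes are printed. The motif TTCNNNGAA is the core of sites bound by STAT factors, and the interferon-stimulated response element, searched as 2 copies of TTTC with any 2 bases between them, is bound by interferon response factors. Both strands of the 250 bases before each gene's start were searched in RefSeq promoters (GRCm38.p6), and a promoter could hold both motifs. Of 13579 symbols tested, 10217 had a promoter in the table. TTCNNNGAA was found in 763 of the 10217 (7.47%) and the response element in 352 (3.45%). Among the 17 interferon gamma list members with a promoter, 8 held the first motif (47.1%) and 11 the second (64.7%). In the 19 type I interferon genes these numbers were 4 (21.1%) and 9 (47.4%), and in the 24 acute phase genes 8 (33.3%) and 2 (8.33%). None of the 23 triglyceride and droplet promoters and none of the 16 cholesterol promoters held either motif in this window. TTCNNNGAA was also in 5 of 23 bile acid promoters (21.7%), 3 of 12 lymphocyte promoters (25%) and 3 of 20 complement promoters (15%). It was in 5 of 25 male-typical promoters (20%) and in 0 of 13 Kupffer cell promoters. Over all 930 promoters of genes higher in females on high fat diet, 8.82% held TTCNNNGAA and 7.1% held the response element. For the 1233 promoters of genes higher in males the shares were 7.62% and 3.24%. A match is a description of the letters and says nothing about binding. The interferon and acute phase lists hold genes known to respond to interferon or STAT signalling, so their motif shares could follow from that choice. Whether the motifs had a part in the sex differences was not tested. The 5 promoters below run from 5′ to 3′ up to the base before the gene's start on the plus strand, and capitals mark the motif matches. Positions are of the first base of a match, counted back from the start.
Irf1, chr11:53769764-53770013, TTCNNNGAA at -90: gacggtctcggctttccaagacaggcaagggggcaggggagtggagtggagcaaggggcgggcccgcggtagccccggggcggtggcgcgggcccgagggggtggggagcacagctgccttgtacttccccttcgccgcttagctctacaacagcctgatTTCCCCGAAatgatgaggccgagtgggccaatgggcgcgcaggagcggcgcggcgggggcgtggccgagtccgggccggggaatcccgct
Gbp7, chr3:142530086-142530335, TTCNNNGAA at -106 and -87, response element at -53: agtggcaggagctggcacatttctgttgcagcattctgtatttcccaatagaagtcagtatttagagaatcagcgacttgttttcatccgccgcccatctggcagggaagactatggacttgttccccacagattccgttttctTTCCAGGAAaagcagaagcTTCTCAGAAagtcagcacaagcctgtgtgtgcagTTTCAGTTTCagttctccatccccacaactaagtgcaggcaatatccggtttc
Irgm2, chr11:58214727-58214976, TTCNNNGAA at -75, response element on the minus strand at -64: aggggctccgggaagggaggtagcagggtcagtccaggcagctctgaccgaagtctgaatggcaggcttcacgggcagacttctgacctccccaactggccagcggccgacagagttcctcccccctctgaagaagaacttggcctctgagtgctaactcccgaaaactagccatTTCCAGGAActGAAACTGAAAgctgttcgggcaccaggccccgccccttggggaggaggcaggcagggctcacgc
Ifit1, chr19:34640639-34640888, response element at -104 and -85: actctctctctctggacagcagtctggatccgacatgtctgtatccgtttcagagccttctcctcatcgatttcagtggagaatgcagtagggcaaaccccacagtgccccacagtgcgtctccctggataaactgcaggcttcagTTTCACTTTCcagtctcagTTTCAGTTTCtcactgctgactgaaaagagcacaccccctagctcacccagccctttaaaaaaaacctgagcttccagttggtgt
Steap4, chr5:7960222-7960471, TTCNNNGAA at -116: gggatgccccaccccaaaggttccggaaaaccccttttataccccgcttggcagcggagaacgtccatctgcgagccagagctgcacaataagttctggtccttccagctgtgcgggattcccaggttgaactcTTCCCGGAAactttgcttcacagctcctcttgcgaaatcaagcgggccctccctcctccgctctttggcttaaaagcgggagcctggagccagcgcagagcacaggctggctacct

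Total expected counts were 22682339 to 29200728 in the female and 22228115 to 29173327 in the male high fat libraries. Xist and the Y-linked genes Ddx3y, Uty, Kdm5d and Eif2s3y matched the labelled sex in 16 of 16 libraries. Male replicates 2 and 3 resembled each other far more than any other pair of high fat libraries. Their counts differed by a chi-square per gene of 4.07, against 20.6 to 310 for other pairs, which is above sampling noise, so they were kept as 2 samples. Whether they came from separate mice or shared tissue is not given in the sources used here. If they shared tissue, the males would be fewer than 4 separate samples and the p-values too small. With the pair averaged into 1 sample, 2416 autosomal genes were called on high fat diet against 2813 below. On the second principal component of the high fat libraries (16% of variance) they lay at -29.4 and -31.9 and the other males at 39.9 and 8.78. List counts are therefore also given with both left out, an alternative chosen after seeing the data. Albumin took 7.88% ± 0.601 (SD, n = 4) of counts in females and 4.87% ± 1.16 (n = 4) in males. Mitochondrial genes took 5.07% ± 0.373 in females and 7.39% ± 1.08 in males. Neither share overlapped between the sexes, with an exact two-sided permutation p of 0.0286, the smallest that 4 against 4 libraries allow, and an adjusted p of 0.0929 over 13 such measures. Summed pancreatic acinar markers were 7.98 to 11.3 CPM (counts scaled to the TMM-adjusted library size) in females. In male replicates 1 to 4 they were 17.2, 44.9, 37.3 and 12.7 CPM, highest in replicates 2 and 3, the pair that resembled each other. The part of these differences in the results was not tested.

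On high fat diet 2813 of the 13587 autosomal genes (20.7%) differed between the sexes at an adjusted p under 0.05. Of these, 1219 (8.97%) were higher in females and 1594 (11.7%) were higher in males. At least a 2-fold difference was found in 827 of them (6.09%), 428 higher in females and 399 higher in males. The 4 female libraries lay wholly above the 4 male libraries for 1428 genes (10.5%) and wholly below for 1691 (12.4%). On normal diet 2148 genes (15.8%) were called, 958 (7.05%) higher in females and 1190 (8.76%) higher in males. Without male high fat replicate 4 the high fat count was 1820. The normal diet count was 1408 without female normal diet replicate 1, 1214 without female normal diet replicate 2 and 1267 without male normal diet replicate 3. On the deposited TPM values, which carry no scaling for composition, the split tilted to 2762 higher in females and 663 higher in males (pseudocount 1), with the median of all genes moved to 0.10 on the log2 scale. With a pseudocount of 0.1 it was 2628 and 643, with a median of 0.15. With TMM scaling applied to the TPM values it was 1274 and 1477. With only the high fat libraries fitted, the TMM-scaled counts gave 905 and 903, so the excess in males was absent.

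The diets shared 1026 called genes, of which 1005 had the same direction and 21 the opposite one. These were 36.5% of the high fat calls and 47.8% of the normal diet calls. Across genes the log2 fold changes on the 2 diets, which share no library, correlated with r = 0.73 (Pearson) and rho = 0.55 (Spearman). The difference of the sex contrast between diets was itself called for 94 genes (0.692%), 37 (0.272%) more female on high fat diet and 57 (0.42%) more male. Only 46 of the 1787 genes called on high fat diet alone had a called difference. A call on a single diet thus does not show that the sex contrast differed between diets. The count of 94 was 49 without female normal diet replicate 2, 55 without female normal diet replicate 4, 59 without male high fat replicate 2, 55 without male high fat replicate 3 and 165 without male high fat replicate 1.

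**Figure D1:**
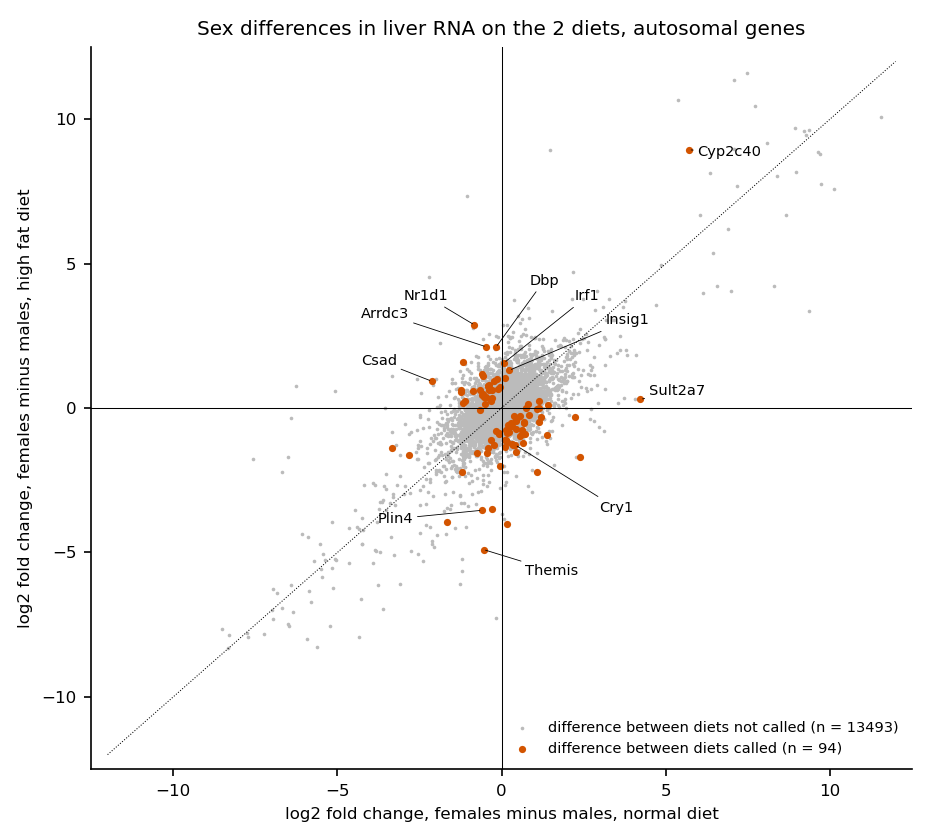
Each point is 1 autosomal gene, with the log2 fold change of females minus males on normal diet on the x axis and on high fat diet on the y axis. Orange points are the 94 genes whose sex contrast differed between diets, and the dotted line marks equal values. Over the 13587 genes Pearson r was 0.73 and Spearman rho 0.55. Nr1d1 and Irf1 lie above the line and Themis, Plin4 and Cry1 below it.

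Above a log2 CPM of 1 on average, and where the sexes did not overlap, the largest differences included known dimorphic enzymes and secreted proteins. Sult2a1, a sulfotransferase for steroids and bile acids, stood at 374.5, 457.8, 738.5 and 676.9 CPM in female replicates 1 to 4 and at 0.149, 0.34, 1.55 and 0.62 in males, a log2 fold change of 9.70 (SE 0.69, adjusted p = 8.85e-07). Cyp3a41b, Cyp3a16, Cyp3a41a, Sult2a2 and A1bg were the others at the female end, with log2 fold changes of 9.45 to 11.37. Hsd3b5, a male-typical steroid dehydrogenase, stood at 0.483, 0.595, 1.53 and 0.196 CPM in females and 151, 32.1, 30.2 and 161.2 in males, a log2 fold change of -7.06 (SE 0.75, adjusted p = 4.93e-05). Mup7, a major urinary protein, stood at 4.63 to 15.5 CPM in females and at 3954, 520.7, 499.5 and 3769 in males. Male replicates 2 and 3 were the lower pair for both genes. Members of the Cyp3a, Sult2a, Mup and Cyp4a12 families are near-identical copies between which reads may be split, so their single values are uncertain. Of a list of 32 female-typical genes 28 were higher in females (median log2 fold change 5.12), and of 35 male-typical genes 30 were higher in males (median -3.54), against 31 and 31 on normal diet. These counts were 29 and 32 with male replicates 2 and 3 left out. Both lists were drawn up from known sex-dependent genes, so their direction was given. Some members, among them Hao2, Elovl3, Cyp7b1, Cux2, Trim24, C8a, C6 and Gstp1, also count in lists below, where their direction was given too. Sult1e1, estrogen sulfotransferase, is on the female-typical list but was lower in females on high fat diet (-1.69), against 2.39 on normal diet.

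**Figure D2:**
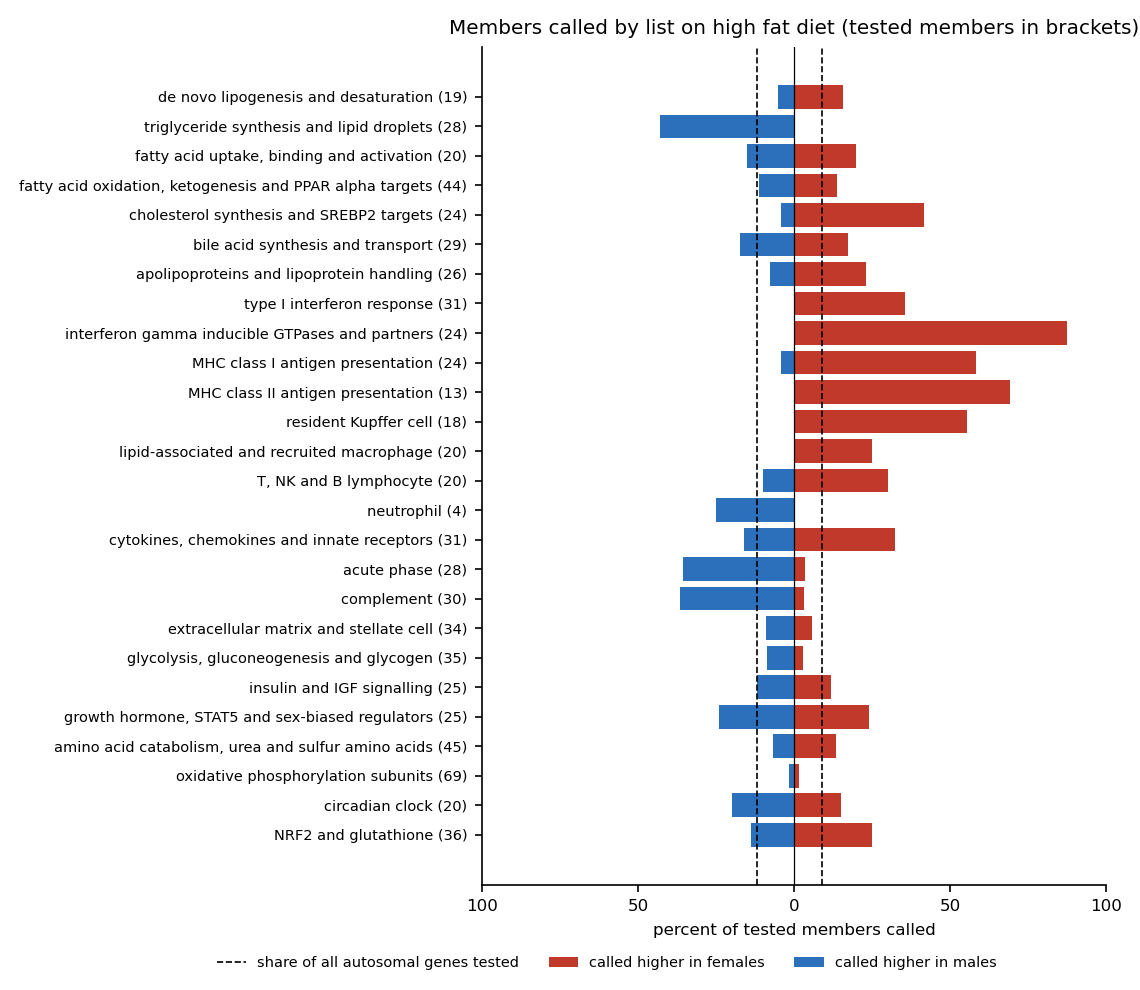
Bars give the percent of tested members of each list called higher in females (right, red) or higher in males (left, blue) on high fat diet, with the number of tested members in brackets; dashed lines mark the share of all autosomal genes (8.97% and 11.7%). Interferon gamma genes reach 21 of 24 on the female side, and triglyceride and droplet genes 12 of 28 on the male side.

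Genes of triglyceride synthesis and lipid droplets were lower in females. Of 28 tested members 12 were higher in males and 0 higher in females, with a median log2 fold change of -0.42 against -0.01 over all genes. On normal diet 2 were higher in males and 3 in females (median 0.03). The difference between diets was called for 3 members, Agpat2, Gpat3 and Plin4, each more male on high fat diet. With male replicates 2 and 3 left out, 6 were higher in males and 1 in females.

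Plin4, a perilipin of the droplet coat, stood at 3.96, 2.75, 4.04 and 1.49 CPM in females and at 17.5, 46.5, 48.7 and 30.4 in males. Every male library was above every female library, with a log2 fold change of -3.54 (SE 0.42, adjusted p = 7.1e-05). On normal diet Plin4 stood at 5.24 to 16.2 CPM in females and 11.5 to 16.6 in males. The sex contrast differed between diets by -2.94 (SE 0.55, adjusted p = 0.0251), a call lost in 10 of 26 alternatives, with adjusted p up to 0.0658. Among these were fits without female high fat replicate 1 or 2, female normal diet replicate 2, male high fat replicate 2 or 3 and male normal diet replicate 2 or 4. Cidec, which fuses droplets into larger ones, stood at 3.66, 1.46, 1.76 and 2.20 CPM in females and 6.62, 22.4, 26.9 and 11.5 in males (log2 fold change -2.88, SE 0.44, adjusted p = 0.000503). Cidea, of the same family, was at 0 to 0.0906 CPM in females and at 0.409, 4.52, 3.85 and 4.16 in males. All 3 of these droplet genes showed their lowest male value in male replicate 1. Lpin1, which makes the diacylglycerol that becomes triglyceride, stood at 25.8, 36.5, 27.5 and 37.1 CPM in females and 53.4, 119.7, 122.9 and 77.5 in males (log2 fold change -1.56, SE 0.27, adjusted p = 0.00126). Agpat2, an acyltransferase one step earlier, was 93 ± 8.74 CPM in females and 142.7 ± 18.2 in males (SD, n = 4, log2 fold change -0.62, adjusted p = 0.00113). Plin2, the main droplet coat protein of hepatocytes, stood at 311.7 to 545.3 CPM in females and 587.6 to 686.3 in males. Its adjusted p was 0.0469, a call lost in 16 of 19 alternatives, with adjusted p up to 0.171. These include fits without female replicate 2, 3 or 4 and without any 1 male library. Pparg, the receptor that induces several droplet genes, was not called (-0.53, adjusted p = 0.171), except without male replicate 1 (-0.72, adjusted p = 0.0383). Because some of these genes are also adipocyte genes, fat cell markers were read beside them. Summed adipocyte markers were 897.3 to 1287 CPM in females and 713.4, 2797, 2842 and 1213 in males, most of it Car3, which liver also makes. Of the 5 tested markers 2, Cfd and Lipe, were higher in males, while Adipoq was at 0.722 ± 0.347 CPM in females and 0.723 ± 0.501 in males. The part of adipocyte RNA in the result was not tested.

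Fatty acid synthesis and desaturation genes moved little as a group. Of 19 tested members 3 were higher in females and 1 in males, with a median of 0.27. The share called was 21.1%, against 20.7% of all autosomal genes. With male replicates 2 and 3 left out the counts were 7 and 1. Without female replicate 1 or male replicate 4 only 1 was higher in females. Fads1, the delta-5 desaturase of polyunsaturated fatty acids, stood at 687.8, 539.1, 696.7 and 587.2 CPM in females and 230.3, 451.3, 472.4 and 222.1 in males (log2 fold change 0.87, SE 0.21, adjusted p = 0.00768). Elovl2, which lengthens polyunsaturated fatty acids, was higher in females by 0.60 (SE 0.17, adjusted p = 0.0201). The Elovl2 call was lost without female replicate 1 (adjusted p = 0.0658) or male replicate 4 (0.0705). Fasn, fatty acid synthase, stood at 115.8, 109.9, 71.5 and 46 CPM in females and 21.8, 49.8, 52.6 and 31.7 in males. Its log2 fold change was 1.14 (SE 0.38, adjusted p = 0.0482), and the call was lost in 9 of 19 alternatives, with adjusted p up to 0.137. These include fits without female replicate 1, 2 or 3 and without male replicate 1, 2 or 4. Scd1, the stearoyl-CoA desaturase, separated the male libraries more than the sexes. It stood at 4473, 3430, 4734 and 1683 CPM in females and at 46.2, 2294, 2403 and 148 in males, with a log2 fold change of 1.55 (SE 0.94, adjusted p = 0.263). With male replicates 2 and 3 left out it was 5.20 (adjusted p = 0.00177). Elovl3, a male-typical elongase, stood at 0.453, 3.54, 5.68 and 2.75 CPM in females and 56.6, 128, 134.7 and 84.8 in males (log2 fold change -5.04, SE 0.57, adjusted p = 7.1e-05), against -2.54 on normal diet. Srebf1, the main driver of this pathway, was not called (0.41, adjusted p = 0.358).

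**Figure D3:**
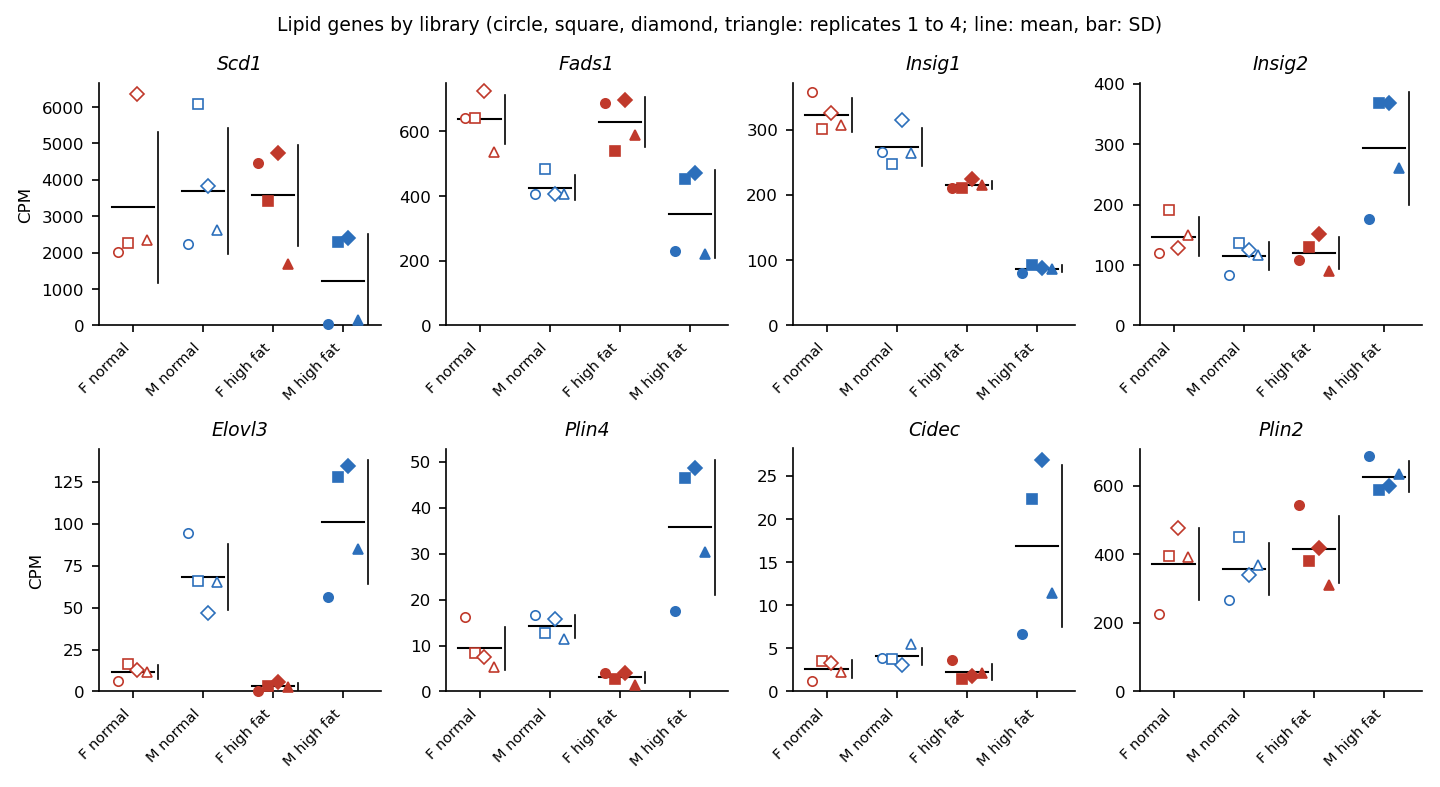
CPM on a linear axis from 0 for 8 lipid genes in the 4 groups of 4 libraries; marker shapes are replicates 1 to 4, lines are means and bars are SD, cut at 0. Plin4, Cidec and Elovl3 are higher in each male than in each female high fat library, and Scd1 shows male replicates 1 and 4 (46.2 and 148 CPM) far below male replicates 2 and 3.

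Genes of fatty acid uptake and oxidation were called in both directions. Of 20 uptake, binding and activation genes 4 were higher in females and 3 in males (median 0.01), a called share of 35%. The male count was 1 without female replicate 1 or 4 and with only the 8 high fat libraries fitted, and the counts were 6 and 1 with male replicates 2 and 3 left out. Vldlr, the receptor for very low density lipoprotein, stood at 17.2, 21.5, 15.3 and 19.4 CPM in females and 1.12, 4.89, 5.46 and 1.42 in males (log2 fold change 2.49, SE 0.40, adjusted p = 0.000778). Cd36, a fatty acid transporter usually higher in female liver, was at 199.7 ± 33.3 CPM in females and 211.3 ± 90.6 in males (SD, n = 4, log2 fold change -0.08, adjusted p = 0.824). Its log2 fold change was 0.58 (adjusted p = 0.0263) with male replicates 2 and 3 left out, and it was 0.10 and 0.13 without male replicate 2 or 3 alone. On normal diet its log2 fold change was 1.38 (adjusted p = 0.00102), and the difference between diets was -1.46 (adjusted p = 0.0511). Of 44 oxidation and PPAR alpha target genes 6 were higher in females and 5 in males (median 0.08), against 12 and 1 on normal diet (median 0.30). The share called on high fat diet was 25%, near the 20.7% of all autosomal genes. The difference between diets was called for 0 of the 44. With male replicates 2 and 3 left out the counts were 13 and 2. The male-side count of 5 was 2 or 3 without female replicate 1, 2 or 4 or without any 1 male library. Hao2, a peroxisomal hydroxy acid oxidase, stood at 40.8, 48.5, 62.9 and 47.8 CPM in females and 0.0743, 1.36, 1.03 and 0.133 in males (log2 fold change 6.19, SE 0.64, adjusted p = 3.5e-05). Cpt1a, which admits fatty acids to mitochondria, was lower in females by a log2 fold change of -0.44 (SE 0.14, adjusted p = 0.0317). The hormone gene Fgf21 was not called (-0.42, adjusted p = 0.666).

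Cholesterol synthesis genes and other targets of the transcription factor SREBP2 were higher in females. Of 24 tested members 10 were higher in females and 1 in males (median 0.28), against 9 and 0 on normal diet (median 0.54). Without male replicate 4 the female count was 6, and it was 8 with male replicates 2 and 3 left out. Insig1, which helps hold SREBP2 in the endoplasmic reticulum and is itself its target, had the tightest groups. It stood at 210.5, 210.4, 224.9 and 215.3 CPM in females and 81, 93.4, 88 and 85.8 in males (log2 fold change 1.31, SE 0.10, adjusted p = 9.23e-08). On normal diet it stood at 300.9 to 358.6 CPM in females and 247.2 to 315.5 in males, and the difference between diets was 1.07 (SE 0.14, adjusted p = 0.0011). Insig2, a related anchor whose liver transcript falls with insulin, moved the other way. It stood at 108.3, 130.6, 150.6 and 89.6 CPM in females and 176.6, 368.8, 369 and 259.9 in males (log2 fold change -1.29, SE 0.23, adjusted p = 0.00135), with a difference between diets of -1.64 (SE 0.33, adjusted p = 0.0251).

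Bile acid genes gave 5 members higher in females and 5 higher in males of 29 tested (median 0.06). Together these were 34.5%, against 20.7% of all autosomal genes. Cyp7b1, a male-typical hydroxylase of the acidic route, stood at 18.7, 22.6, 28.1 and 37.5 CPM in females and 1001, 140.1, 146.5 and 580.8 in males (log2 fold change -4.13, SE 0.57, adjusted p = 0.000371). Cyp8b1, which makes the cholic acid precursor, was lower in females by -1.41 on the log2 scale (SE 0.34, adjusted p = 0.00968). Cyp7a1, the rate-limiting enzyme of the classical route, was at 352.7 ± 85.7 CPM in females and 328.5 ± 123 in males (SD, n = 4, adjusted p = 0.848). Nr0b2, the repressor SHP that bile acids induce through FXR, stood at 14.4, 23.1, 8.90 and 22.1 CPM in females and 4.91, 6.52, 4.78 and 5.62 in males (log2 fold change 1.65, SE 0.34, adjusted p = 0.00396). Abcc4, an exporter of bile acids to blood, was also higher in females (1.35, SE 0.21, adjusted p = 0.000337). Without female replicate 4 or male replicate 4 the female count was 3, and the counts were 8 and 3 with male replicates 2 and 3 left out.

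Among 26 apolipoprotein and lipoprotein genes 6 were higher in females and 2 in males (median 0.21). Together these were 30.8%, against 20.7% of all autosomal genes. On TPM values with pseudocount 1 the counts were 11 and 0. They were 8 and 3 with male replicates 2 and 3 left out. The members higher in males were Sort1, a sorting receptor (-0.79, SE 0.20, adjusted p = 0.00955), and Abca1, a cholesterol exporter (-0.63, SE 0.18, adjusted p = 0.0213). Neither was called when only the 8 high fat libraries were fitted, and over all alternatives their adjusted p reached 0.0694 and 0.116. The male count was 1 without female replicate 1, 3 or 4 or male replicate 4. Tm6sf2, needed to load lipid onto very low density lipoprotein, stood at 21.3, 20, 21.5 and 18.1 CPM in females and 7.80, 8.22, 9.11 and 4.52 in males (log2 fold change 1.44, SE 0.16, adjusted p = 1.27e-05). Lipc, hepatic lipase, was higher in females by 0.83 (SE 0.15, adjusted p = 0.00136).

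The clearest immune difference lay in genes that interferon gamma induces. Of 24 tested members of that list 21 were higher in females and 0 in males, with a median log2 fold change of 1.67, and in 19 of the 24 each female library was above each male library. These shares can be read against 8.97% and 10.5% of all autosomal genes. On normal diet 2 of the 24 were higher in females (median 0.50). With male replicates 2 and 3 left out 15 were higher in females, and leaving out any 1 library gave 16 to 21. The list holds many near-identical GTPases, so its members are not independent. Ifng, the ligand, was too low to test, with 20 counts over the 4 female and 5 over the 4 male libraries. Its receptors Ifngr1 and Ifngr2 were not called (0.26 and 0.23).

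Irf1, the first-line factor whose promoter is printed above, stood at 57.1, 28.1, 38.1 and 64.1 CPM in females and 16.3, 16.6, 15.9 and 14.4 in males (log2 fold change 1.57, SE 0.19, adjusted p = 3.53e-05). On normal diet it stood at 14.1 to 19.5 CPM in females and 15.1 to 18.6 in males, close to the high fat males. The difference between diets was called for Irf1 alone of this list (1.49, SE 0.27, adjusted p = 0.0142). Igtp, an immunity-related GTPase, stood at 254.8, 74.4, 106.8 and 368.4 CPM in females and 32.3, 40.2, 40.1 and 34.9 in males (log2 fold change 2.45, SE 0.39, adjusted p = 0.00101). Irgm2, of the same family, stood at 238.5, 110.6, 145.1 and 398.1 CPM in females and 67.5, 72.7, 71.9 and 79.9 in males (log2 fold change 1.61, SE 0.29, adjusted p = 0.00172). Gbp7, a guanylate-binding protein, stood at 79.5, 49.3, 69.4 and 160.5 CPM in females and 24.9, 33.5, 31.3 and 31.6 in males (log2 fold change 1.56, SE 0.26, adjusted p = 0.000848). In all 4 genes female replicates 1 and 4 were the higher pair and the males lay close together. For Tgtp1 the spread among females was widest, at 263, 17.5, 35.1 and 530.7 CPM against 18.3 to 19.7 in males, so the groups overlapped. Its log2 fold change was 3.48 (SE 0.83, adjusted p = 0.0117). The chemokines Cxcl9 and Cxcl10, which draw T cells, were higher in females by 1.68 (SE 0.48, adjusted p = 0.0265) and 1.95 (SE 0.40, adjusted p = 0.00364).

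Type I interferon genes were also higher in females, with the difference between diets called for 0 members. Of 31 tested members 11 were higher in females and 0 in males (median 0.62), against 3 and 0 on normal diet (median 0.32). The count was 17 without male replicate 1, 19 on TPM values with pseudocount 1 and 5 with male replicates 2 and 3 left out. Ifit1, which binds foreign RNA, stood at 53.3, 38.2, 41.1 and 69.2 CPM in females and 18.7, 22.6, 22.3 and 26.2 in males (log2 fold change 1.17, SE 0.19, adjusted p = 0.00064).

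Antigen presentation genes were higher in females in both classes, with the difference between diets called for 0 members of either. Of 24 MHC class I members 14 were higher in females and 1, the chaperone Pdia3, in males (median 0.72), against 4 and 1 on normal diet. The female count was 8 without female replicate 1 or 4, 8 without male replicate 2, 3 or 4, and 6 with male replicates 2 and 3 left out. Psmb10, an immunoproteasome subunit, stood at 49.2, 20.1, 24.6 and 50.1 CPM in females and 17.7, 14.2, 13.6 and 15.8 in males (log2 fold change 1.23, SE 0.26, adjusted p = 0.0043). H2-T23, the nonclassical Qa-1 molecule, was higher in females by 0.82 (SE 0.18, adjusted p = 0.00423). B2m, the shared light chain, had a log2 fold change of 0.15. The Pdia3 call (-0.58, adjusted p = 0.0309) was lost in 9 of 19 alternatives, with adjusted p up to 0.175, among them fits without female replicate 2, 3 or 4 and without male replicate 1 or 4. Of 13 MHC class II members 9 were higher in females and 0 in males (median 1.46), against 1 and 0 on normal diet. The count was 5 without female replicate 4 or without male replicate 4 and 6 with male replicates 2 and 3 left out. H2-Aa, a class II alpha chain, stood at 122.4, 36.4, 53.1 and 151 CPM in females and 21.7, 34.2, 32.3 and 22.9 in males (log2 fold change 1.71, SE 0.43, adjusted p = 0.0149). Ciita, the class II transactivator, was higher in females by 1.62. Cd86, a costimulatory ligand, stood at 8.67, 9.06, 7.70 and 11.4 CPM in females and 4.46, 4.58, 3.13 and 4.65 in males (log2 fold change 1.13, SE 0.20, adjusted p = 0.00114).

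**Figure D4:**
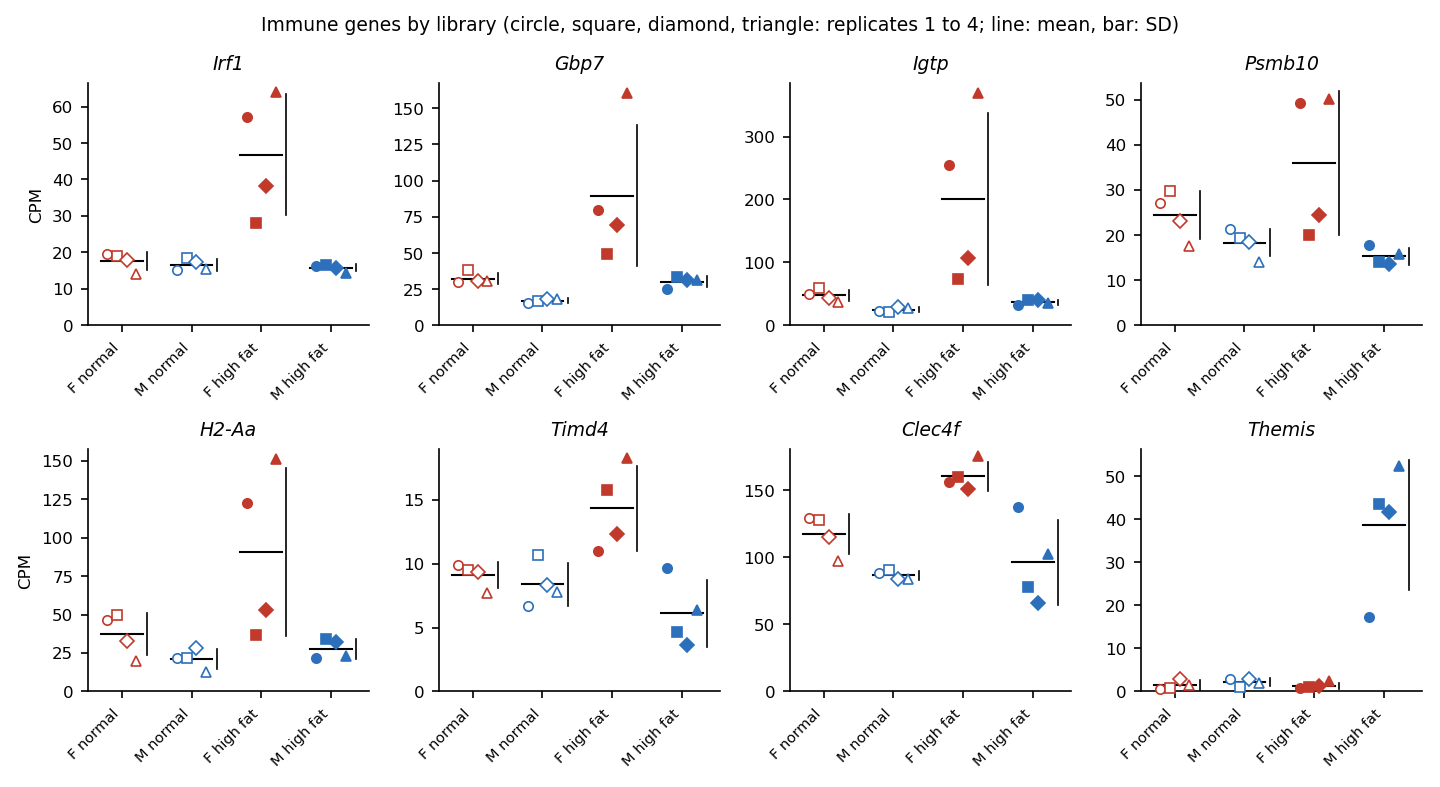
CPM on a linear axis from 0 for 8 immune genes in the 4 groups of 4 libraries; marker shapes are replicates 1 to 4, lines are means and bars are SD, cut at 0. Female high fat replicates 1 and 4 are the higher pair for Irf1, Gbp7, Igtp, Psmb10 and H2-Aa, while Themis is at 17.2 to 52.3 CPM in high fat males and under 3 CPM in each other library.

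Kupffer cell transcripts were higher in females, with the difference between diets called for 0 of the resident Kupffer genes. Of 18 resident Kupffer genes 10 were higher in females and 0 in males (median 0.74), against 1 and 1 on normal diet. With male replicates 2 and 3 left out the count was 3. Timd4, a receptor for dying cells on long-lived Kupffer cells, stood at 11, 15.8, 12.3 and 18.3 CPM in females and 9.70, 4.69, 3.64 and 6.42 in males (log2 fold change 1.23, SE 0.24, adjusted p = 0.00226). Clec4f, a lectin that marks Kupffer cells, stood at 156.1, 159.8, 150.6 and 175.6 CPM in females and 137.8, 77.9, 66.2 and 102.8 in males (log2 fold change 0.74, SE 0.17, adjusted p = 0.00501). Male replicates 2 and 3 were lowest for both. Summed over all 8 defining markers, the level was 508.6, 505.3, 425.3 and 618.8 CPM in females and 429.2, 235.1, 201.5 and 312.2 in males. The exact two-sided permutation p was 0.0571 (adjusted p 0.106). This sum includes a marker that is not on an autosome. Of the 7 autosomal markers tested 5 were higher in females. None of these markers was at 0 in all high fat libraries. The part of Kupffer cell content in the interferon, antigen presentation and macrophage results was not tested. Of 20 genes of lipid-associated and recruited macrophages 5 were higher in females and 0 in males (median 0.29). In all 25% were called, near the 20.7% of all autosomal genes, of which 8.97% were higher in females. The count was 3 without female replicate 4, male replicate 2 or male replicate 4, and 2 with male replicates 2 and 3 left out. Tyrobp, a signalling adaptor of myeloid cells, was higher by 1.36 (SE 0.24, adjusted p = 0.00101), and Trem2, the receptor that defines lipid-associated macrophages, was not called (-0.26, adjusted p = 0.706).

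Lymphocyte transcripts were low, and 8 listed genes fell below the filter. Of the 20 tested 6 were higher in females and 2 in males (median 1.12), against 5 and 1 on normal diet. On high fat diet 40% were called, against 20.7% of all autosomal genes. The female count was 3 without female replicate 1 or 4 and 10 without male replicate 3, and the counts were unchanged at 6 and 2 with male replicates 2 and 3 left out. Summed T and B cell markers were 5.31 to 11.2 CPM in females and 3.67 to 6.11 in males (exact two-sided permutation p of 0.2), and their part in the interferon result was not tested. Gzmb and Ccl5, products of cytotoxic cells, were higher in females by 2.18 and 2.15. The Ccl5 call was lost without female replicate 4 (adjusted p = 0.0541). The members higher in males were Cd4 and Themis. Cd4, the helper T cell coreceptor, which some macrophages also carry, stood at 0.846, 0.628, 0.486 and 2.00 CPM in females and 3.68, 1.12, 1.86 and 4.03 in males. Its log2 fold change was -1.43 (SE 0.42, adjusted p = 0.022), against -1.51 on normal diet (adjusted p = 0.0295). The high fat call of Cd4 was lost in 6 of 19 alternatives, with adjusted p up to 0.0916, among them fits without female replicate 1, 2 or 3 or male replicate 1 or 4. Themis is a gene of T cell selection. It stood at 0.695, 0.992, 1.23 and 2.35 CPM in females and 17.2, 43.5, 41.8 and 52.3 in males (log2 fold change -4.90, SE 0.54, adjusted p = 4.37e-05). On normal diet it was at 0.519 to 2.96 CPM in females and 1.06 to 2.85 in males, so the difference between diets was -4.35 (SE 0.75, adjusted p = 0.0158). Cd3d, a CD3 chain of the T cell receptor complex, was higher in females (2.06) in the same libraries.

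Of 31 cytokine, chemokine and innate receptor genes 10 were higher in females and 5 in males (median 0.35), against 4 and 0 on normal diet. The counts were 4 and 6 with male replicates 2 and 3 left out. The difference between diets was called for 0 of these genes. The female count was 6 without female replicate 1, 3 without female replicate 4 and 4 without male replicate 4. Ccl9, a myeloid chemokine, stood at 137.2, 86.9, 92.8 and 104.9 CPM in females and 42 to 43.9 in males (log2 fold change 1.30, SE 0.19, adjusted p = 0.000241). Il15, which sustains NK and memory T cells, was higher in females by 1.54 (SE 0.35, adjusted p = 0.0054). Il1r1, the interleukin 1 receptor, stood at 17.9, 29.8, 25.8 and 30.1 CPM in females and 146.7, 50.8, 48.7 and 126.1 in males (log2 fold change -1.85, SE 0.34, adjusted p = 0.00203). Tlr5, the flagellin receptor, was lower in females by a log2 fold change of -1.13 (SE 0.21, adjusted p = 0.00149).

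Acute phase genes, which hepatocytes raise under interleukin 6 and STAT3, were lower in females, but the count moved with single libraries. Of 28 tested members 10 were higher in males and 1, Hamp2, in females (median -0.84), against 1 and 3 on normal diet (median -0.37). The difference between diets was called for 1 member. The male count was 2 without male replicate 1 or 4, 16 without male replicate 3, and 3 or 4 without any 1 female library. It was 23 with male replicates 2 and 3 left out and 1 when only the 8 high fat libraries were fitted. Saa1, serum amyloid A, stood at 95.2, 27.6, 39.9 and 89.2 CPM in females and 5386, 77.2, 71.6 and 2197 in males (log2 fold change -4.94, SE 1.39, adjusted p = 0.0254). Reads of Saa1 and Saa2 may be split between near-identical copies. Lcn2, lipocalin 2, stood at 29.2, 9.82, 17.1 and 34.7 CPM in females and 1262, 19.2, 21.6 and 273.4 in males. Its log2 fold change was -4.12 (SE 1.31, adjusted p = 0.0426), lost in 12 of 19 alternatives, with adjusted p up to 0.235. Among them were fits without any 1 female library and without male replicate 1 or 4. In both genes male replicates 1 and 4 were high while male replicates 2 and 3 were within or near the range of the females. Steap4, a metalloreductase, stood at 148.8, 135.8, 134.9 and 183.7 CPM in females and 1113, 221.1, 219.1 and 708.8 in males (log2 fold change -1.91, SE 0.48, adjusted p = 0.0145). That call was lost when only the 8 high fat libraries were fitted (adjusted p = 0.056). Saa4, the constitutive family member, stood at 184.3, 217.2, 224 and 277.2 CPM in females and 843.4, 407.1, 418.8 and 1092 in males (log2 fold change -1.61, SE 0.32, adjusted p = 0.00278). Hamp2, a second hepcidin gene, stood at 94.2, 148.9, 93.7 and 153.7 CPM in females and 0.483, 12.7, 16.4 and 0.841 in males (log2 fold change 3.99, SE 0.82, adjusted p = 0.00549).

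Complement genes were lower in females on both diets. Of 30 tested members 11 were higher in males and 1 in females on high fat diet (median -0.38), with the same counts on normal diet (median -0.24). With male replicates 2 and 3 left out the counts were 19 and 1. C8a and C6, parts of the membrane attack complex and both on the male-typical list, had the smallest p-values of the members higher in males. C8a stood at 198.5, 139.1, 150.8 and 131.7 CPM in females and 1400, 585.5, 582.9 and 1433 in males (log2 fold change -2.69, SE 0.28, adjusted p = 7.2e-06). C6 stood at 24.4 to 27.8 CPM in females and 445.8, 144.1, 144.6 and 489.3 in males (log2 fold change -3.54, SE 0.35, adjusted p = 1.02e-05). Mbl2, a mannose-binding lectin that starts the lectin pathway, was the member higher in females. It stood at 622.2 to 731.1 CPM in females and 243.3 to 337.6 in males (log2 fold change 1.22, SE 0.14, adjusted p = 1.21e-05). Cfd, adipsin, a factor made mainly by fat cells, was at 0 to 0.0785 CPM in females and 0.372, 9.64, 10.2 and 3.76 in males. The adipocyte marker sums given above were also highest in male replicates 2 and 3, and their part in the Cfd result was not tested.

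**Figure D5:**
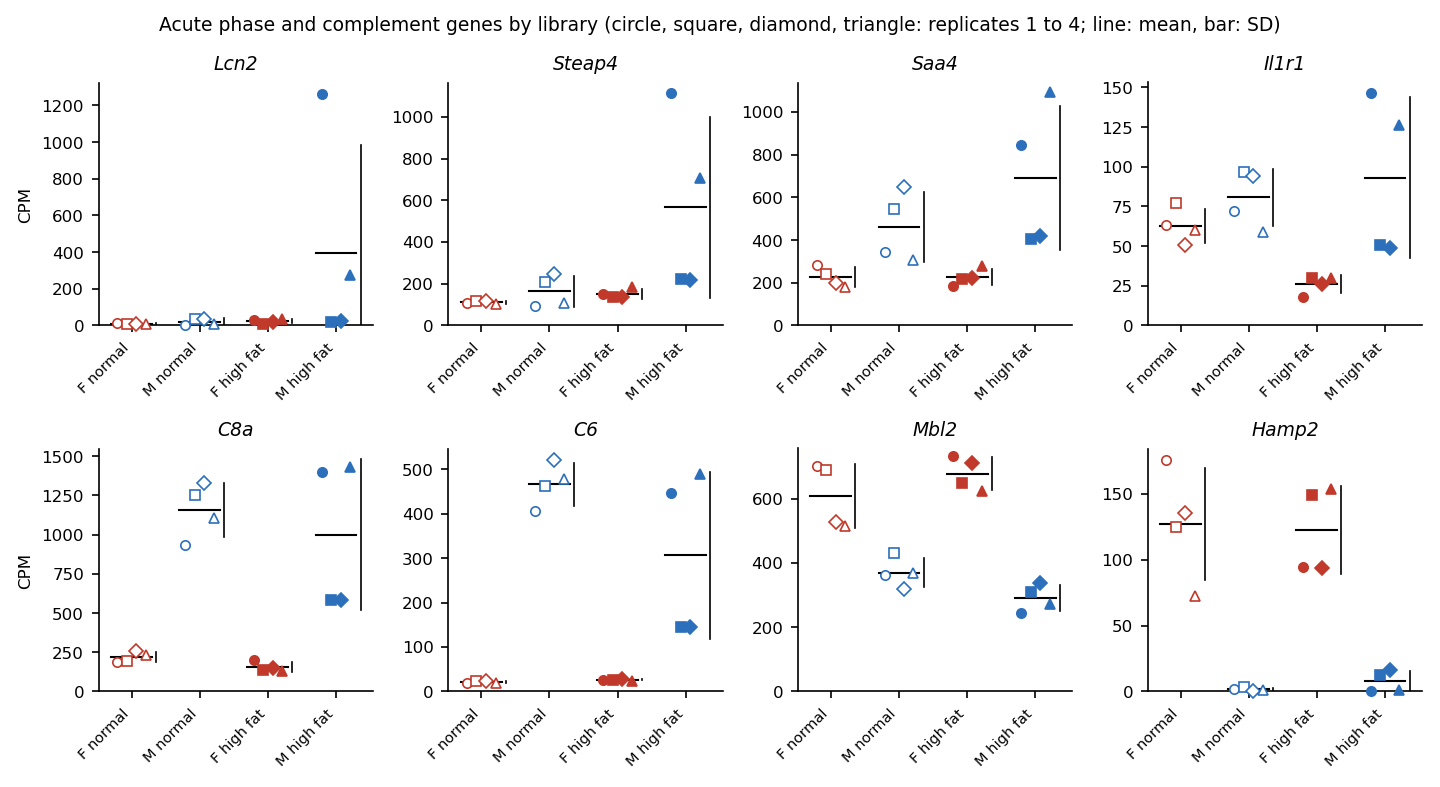
CPM on a linear axis from 0 for 8 acute phase, complement and receptor genes in the 4 groups of 4 libraries; marker shapes are replicates 1 to 4, lines are means and bars are SD, cut at 0. Male high fat replicates 1 and 4 are the high pair for Lcn2, Steap4, Saa4, Il1r1, C8a and C6, while Mbl2 and Hamp2 are higher in each female high fat library.

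Extracellular matrix genes showed 2 of 34 tested higher in females and 3 in males (median 0.06), below the shares over all genes. The male count was 1 without female replicate 2 or 3 or male replicate 4, and 0 with only the 8 high fat libraries fitted. The female count was 1 without female replicate 4 or male replicate 3, and the counts were 0 and 2 with male replicates 2 and 3 left out. Col4a1 and Col4a2, chains of basement membrane collagen, were higher in males, with log2 fold changes of -0.66 (SE 0.22, adjusted p = 0.0404) and -0.82 (SE 0.21, adjusted p = 0.0121). The calls were lost in 11 and 4 of 19 alternatives, both of them without male replicate 1, with adjusted p up to 0.212 and 0.109. Col1a1, the main fibrillar collagen of scar, was not called (-0.72, adjusted p = 0.232). Des, the stellate cell filament desmin, was higher in females by 0.91 (SE 0.22, adjusted p = 0.00799), and that call was lost with male replicates 2 and 3 left out (adjusted p = 0.0842). Summed stellate cell markers were 491 ± 44.9 CPM in females and 414 ± 31.1 in males (SD, n = 4, exact two-sided permutation p of 0.0571), and their part in the Des result was not tested.

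Glucose genes differed little. Of 35 members of glycolysis, gluconeogenesis and glycogen metabolism 1 was higher in females and 3 in males (median 0.11). The share called was 11.4%, against 20.7% of all autosomal genes. Without male replicate 1 the male count was 5. The female count was 8 on TPM values with pseudocount 1 and 6 with male replicates 2 and 3 left out. Pck1, the committed enzyme of gluconeogenesis, stood at 667.9, 1071, 1360 and 1396 CPM in females and 2272, 1825, 1883 and 1530 in males (log2 fold change -0.74, SE 0.20, adjusted p = 0.0134). The Pck1 call was lost when only the 8 high fat libraries were fitted (adjusted p = 0.0556). The catalytic subunit of glucose-6-phosphatase, G6pc, was not called (-0.90, adjusted p = 0.214). Of 25 insulin and IGF genes 3 were higher in each sex (median -0.08), with a male count of 5 without female replicate 2 and counts of 3 and 1 with male replicates 2 and 3 left out. The share called was 24%, near that over all genes. Igfals, which stabilises IGF1 in blood, stood at 80.4, 94.7, 83.7 and 61.1 CPM in females and 45.4, 49, 50.5 and 50.7 in males (log2 fold change 0.71, SE 0.11, adjusted p = 0.000385). It is listed as male-typical and ran against that list.

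Of 25 regulators of the growth hormone axis 6 were higher in each sex (median -0.19), and with male replicates 2 and 3 left out 4 were higher in females and 5 in males. Cux2, a female-typical repressor of male genes, stood at 19.9, 12.8, 21.3 and 17.2 CPM in females and 0.0743 to 0.266 in males (log2 fold change 6.70, SE 0.40, adjusted p = 5.98e-09). Trim24, a coregulator, was higher in females by 1.65 (SE 0.16, adjusted p = 1.35e-06). Prlr, the prolactin receptor, was at 446.4 ± 108 CPM in females and 93.4 ± 40.4 in males (SD, n = 4, log2 fold change 2.26, adjusted p = 2.33e-05). Ghr and Stat5b were not called (-0.34 and -0.24, adjusted p = 0.165 and 0.213). Bcl6, a male-typical repressor, was lower in each female library than in each male library but was not called (-1.25, adjusted p = 0.0966), except when only the 8 high fat libraries were fitted (-1.22, adjusted p = 0.0157).

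Of 45 amino acid genes 6 were higher in females and 3 in males (median 0.05). The share called was 20%, against 20.7% of all autosomal genes. Those higher in females numbered 2 without male replicate 4, 12 on TPM values with pseudocount 1 and 11 with male replicates 2 and 3 left out. Cbs, which commits homocysteine to cysteine, stood at 330.4, 232.3, 216 and 237.3 CPM in females and 138.2 to 164.5 in males (log2 fold change 0.78, SE 0.18, adjusted p = 0.00687). Its sex contrast on normal diet was -0.41, and the difference between diets was 1.19 (SE 0.26, adjusted p = 0.0419). Csad, of taurine synthesis, was at 26.8 to 105 CPM in females and 24.8 to 46.1 in males on high fat diet. On normal diet it was at 49.7 to 94.7 in females and 208.6 to 367 in males, a difference between diets of 3.06 (SE 0.52, adjusted p = 0.0145), lost under the replicate block (adjusted p = 0.0622). Kmo, of the kynurenine pathway, was lower in females by -0.75 on the log2 scale (SE 0.12, adjusted p = 0.000535). Agxt, which detoxifies glyoxylate, was higher in females by 1.30 (SE 0.23, adjusted p = 0.00137).

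Oxidative phosphorylation subunits encoded on autosomes gave 1 member of 69 higher in each sex (median 0.14), and 2 and 0 with male replicates 2 and 3 left out. The called share of 2.9% was below the 20.7% of all autosomal genes. The female count was 0 without female replicate 1 or male replicate 1, 2 or 4. Without any 1 library other than female replicate 3 the male count was 0. On TPM values with pseudocount 1 the female count was 31, so this count depended on the scaling. Glutathione and NRF2 genes gave 9 of 36 higher in females and 5 in males (median 0.17), against 9 and 6 on normal diet. On high fat diet 38.9% of them were called. The male count was 3 without female replicate 1, 2 or 3 or male replicate 3 or 4, and the counts were 16 and 4 with male replicates 2 and 3 left out. Gstp1, a male-typical glutathione transferase, stood at 225.7, 119.1, 124.2 and 205 CPM in females and 1767, 496.1, 498.7 and 1535 in males (log2 fold change -2.67, SE 0.39, adjusted p = 0.000368).

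Clock genes had more members with a called difference between diets than any other list. Of 20 tested 3 were higher in females and 4 in males on high fat diet (median -0.17), against 1 and 4 on normal diet. On high fat diet 35% were called, against 20.7% of all autosomal genes. The female count was 5 without female replicate 1. Clock counts were 4 and 2 with male replicates 2 and 3 left out. The difference between diets was called for 4 members, among them Nr1d1, Dbp and Cry1. Nr1d1, the repressor REV-ERB alpha, stood at 59.5, 44.2, 40.7 and 40.9 CPM in females and 6.62, 6.99, 5.77 and 5.76 in males on high fat diet (log2 fold change 2.88, SE 0.22, adjusted p = 2.11e-07). On normal diet it stood at 9.16, 9.99, 16.3 and 17.8 in females and 18.9, 27.2, 18.8 and 29.5 in males (log2 fold change -0.83, adjusted p = 0.0131). The direction thus turned between diets, with a difference of 3.71 (SE 0.30, adjusted p = 5.54e-06). Dbp, an output factor of the clock, stood at 99.3, 57.3, 54.5 and 89.9 CPM in females and 16.3 to 18.5 in males on high fat diet, a log2 fold change of 2.11 (SE 0.20, adjusted p = 2.12e-06). On normal diet Dbp was at 40.1 to 50.1 CPM in females and 40.3 to 69 in males, and the difference between diets was 2.27 (SE 0.28, adjusted p = 0.000837). Cry1, a repressor that peaks in another phase, stood at 3.78, 7.97, 9.95 and 6.95 CPM in females and 13.8, 18.8, 18.4 and 18.1 in males (log2 fold change -1.28, SE 0.22, adjusted p = 0.000724), with a difference between diets of -1.70 (SE 0.30, adjusted p = 0.0112). Clock genes cycle over the day, and the hour of collection is not given in the sources used here, so sex and hour of collection cannot be told apart. The same limit holds for any gene of the lipid, immune and metabolic lists above that cycles over the day. The part of the hour of collection in those results was not tested. Exons of Nr1d1 and of Dbp overlap those of a neighbouring gene over 8.55% and 18% of their length in GENCODE M21, and whether counting used strand is not given in the sources used here.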

How the data were processed

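The authors deposited 1 table of RSEM expected counts and 1 of TPM (transcript abundances scaled by length and library) for 16 poly(A) RNA libraries of mouse liver. STAR, RSEM and the build GRCm39 are named in the submitters' processing notes without versions. Symbols and chromosomes came from supplied tables: 51487 of the 78317 listed genes had a symbol and 51536 a chromosome in GENCODE M21. Because that annotation is of an older build, no coordinates are given except those of RefSeq promoters on GRCm38.p6.

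Expected counts were rounded to whole numbers (4.89% of entries were not whole), filtered with filterByExpr and scaled by TMM. The quasi-likelihood test of edgeR 4.0.16 (R 4.3.3, robust) was fitted to 16 libraries in 4 groups, with Benjamini-Hochberg adjustment over all 14781 tested genes, which held 99.94% of counts. A gene was called at an adjusted p under 0.05. Each log2 fold change is females minus males. Its standard error is its size divided by the square root of F. On simulated counts with 200 changed genes among 14569, 59% of 2-fold and 82% of 4-fold changes were recovered and 4.7% of calls were false. The simulated libraries were independent and had the same spread in every group. They lacked the likeness of male high fat replicates 2 and 3, so these shares may not hold for the real comparison. Single measures were compared by exact two-sided permutation of libraries. Alternatives were DESeq2 1.42.0, its size factors in edgeR, no filter, fewer libraries, a replicate block and limma 3.58.1 on log2(TPM + 1) and log2(TPM + 0.1).

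Genes and lists were chosen with earlier results of these data known. Named genes were the 6 called with the largest and the 6 with the smallest log2 fold change, the 2 called members of each list with the smallest p in each direction, the 5 largest and 5 smallest called differences between diets, and a set of liver genes named in any case. The genes with the largest fold changes or differences needed a mean log2 CPM of at least 1. Other list members are given as examples chosen after their values were seen. A few members of the lists are counted but their values are not reported here.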

Additional observations from a re-analysis of the deposited data

Results flagged for a closer look

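The sex contrast differed between the diets by the test of the difference itself for these named genes, each given as the high fat minus the normal diet log2 fold change of females over males. It was positive for Nr1d1 (3.71), Cyp2c40 (3.22), Csad (3.06), Adgrf1 (2.75), Arrdc3 (2.59), Dbp (2.27), Irf1 (1.49), Cbs (1.19), Gstm4 (1.17) and Insig1 (1.07). It was negative for Themis (-4.35), Sult2a7 (-3.94), Plin4 (-2.94), Mfsd2a (-2.30), Ppp1r1b (-1.97), Cry1 (-1.70) and Insig2 (-1.64). The Arrdc3 call was lost in 20 of 26 alternatives, with adjusted p up to 0.108, and the Sult2a7 call in 5 of 26, with adjusted p up to 0.0575. The Sult2a7 losses came in part from leaving out replicate 2 of the normal diet females, replicate 3 of the high fat males or replicate 2 of the normal diet males. For Arrdc3 they include leaving out any 1 of 13 libraries, the exceptions being male normal diet replicates 1, 2 and 4.

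Of 202 groups of 4 libraries tested, 10 had 1 library far from the other 3, and chance flags about 1 in 20 groups. In the male high fat group the outlying values were 0.344 CPM for Cyp3a41b, 161 for H2-T23, 3.13 for Cd86, 0.31 for Gzmb, 3.08 for Hk3, 11.4 for Irs1, 13.8 for Cry1 and 1.46 for Adgrf1. In the female high fat group they were 16.4 CPM for Cd9 and 4.14 for Tlr5.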

How the results depend on the processing

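No count over all genes changed by over 1.5 times under DESeq2 size factors, no filter on low counts or the replicate block, and no called gene among those named reversed its direction under an alternative. The sign turned for 4 named genes not called on high fat diet, over the ranges -0.26 to 0.58 for Cd36, -1.35 to 0.15 for Fgf21, -0.07 to 0.66 for Cyp7a1 and -0.08 to 0.69 for Sult2a7. The balance of calls also turned, from more in males to more in females, on TPM without TMM scaling. Fitting only the groups compared gave 1808 calls on high fat diet, 905 higher in females and 903 higher in males. The excess in males was thus absent there too. On log2(TPM + 1) there were 2762 calls higher in females and 663 higher in males, 426 at least 2-fold, and 737 higher in males on normal diet. On log2(TPM + 0.1) these were 2628, 643 and 762. TMM-scaled TPM, added after seeing the data, gave 367 at least 2-fold. For the difference between diets DESeq2 gave 310 calls (129 more female, 181 more male), log2(TPM + 1) 56 and 35, log2(TPM + 0.1) 29 more male, and averaging male high fat replicates 2 and 3 gave 55 (22 and 33). With both of those left out, high fat calls were 2492, of which 1794 were among the reported ones. Leaving out 1 library at a time gave 1820 to 2817 calls on high fat diet (786 to 1212 higher in females, 1034 to 1638 in males, 664 to 888 at least 2-fold). It gave 1214 to 2326 on normal diet (582 to 1118 and 622 to 1208), and 49 to 165 for the difference (22 to 72 more female, 27 to 93 more male). The cause of these shifts was not tested, and fewer libraries also lower the power. Replicate numbers did not pair the libraries (r of deviations -0.16 to 0.18). With the replicate block there were 3224 calls on high fat diet, 2499 on normal diet and 95 for the difference. Under the same block 3 acute phase genes were higher in males and 5 oxidative phosphorylation genes in females. Depth limits rare transcripts such as Ifng.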

Other observations

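Several further genes changed their sex contrast with diet. Arrdc3, Mfsd2a and Adgrf1 are outside the lists, while Sult2a7 and Cyp2c40 are on the female-typical list. Arrdc3, an arrestin-domain protein, stood at 313.5, 349.4, 238.3 and 381.7 CPM in females and 60.4 to 84.6 in males on high fat diet (log2 fold change 2.12, SE 0.39, adjusted p = 0.00235). On normal diet it was at 74.3 to 103.5 CPM in females and 40 to 231.3 in males. Mfsd2a, a transporter of lysophosphatidylcholine with omega-3 fatty acids, was at 83.8 to 125.8 CPM in females and 35.2 to 49.3 in males on normal diet. On high fat diet it was at 18.1 to 33.8 CPM in females and 31.9 to 69.1 in males, and the difference between diets was -2.30 (SE 0.36, adjusted p = 0.00629). Sult2a7 was at 19 to 31.2 CPM in females and 1.11 to 1.49 in males on normal diet, while on high fat diet the groups overlapped at 0.332 to 5.46 and 2 to 3.57. Adgrf1, an adhesion receptor, was higher in females on high fat diet (1.496 to 2.94 against 0.509 to 1.46 CPM) and lower in females on normal diet (2.56 to 4.41 against 4.49 to 9.93 CPM). Without male high fat replicates 2 and 3 the high fat call of Adgrf1 was lost (adjusted p = 0.0606). Cyp2c40 was higher in females on both diets, at 497.2 to 870.9 against 0.743 to 2.58 CPM on high fat diet and 826.9 to 1218 against 12.8 to 35.9 CPM on normal diet.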
